A study of Mus musculus with 6 samples.

Results

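Interferon-stimulated genes were followed in DN3a thymocytes, early T cell precursors of the thymus, without CD4 or CD8, in which the T cell receptor beta locus is being rearranged. A set of 39 genes known to respond to interferon was taken by gene symbol from the 41254 symbols of the deposited table, the transcripts of each symbol were summed in each library, and all 39 passed the filter on low counts that left 14653 genes for testing. The RNA came from adult C57BL/6 mice, with 3 libraries from wild-type animals and 3 from animals whose genotype is labelled Tg_Cd2_GATA3. GATA3 is a transcription factor needed for T cell development, and the comparison asks how RNA levels differ in cells of the transgenic genotype. The labels used here do not describe the transgene beyond that name, and do not say how the cells were isolated. Nor do they say whether the libraries of a group came from separate animals. The p-values therefore take in no more than the spread seen between libraries. Part of that spread may be technical. Y-linked RNA differed within each group, as given below, so the libraries of a group did not all come from the same animals.

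Type I interferons bind a surface receptor whose kinases, JAK1 and TYK2, phosphorylate STAT proteins, STAT2 among them. These join IRF9 in a complex that binds interferon-stimulated response elements and turns on genes for antiviral proteins, for nucleic acid sensors and for the pathway's own factors. Interferon gamma acts through another receptor, and induces the immunity-related GTPases. Many of these genes keep a basal level of expression in the absence of infection.

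The libraries held 39022281 to 46985605 fragments assigned to transcripts, and levels are given either as CPM (fragments scaled to library size by TMM), to compare libraries, or as FPKM, which is per length, to compare genes. Gata3 itself was measured at 49.1, 38.2 and 43.5 CPM in wild-type libraries 1, 2 and 3 and at 58.6, 53.6 and 61.6 CPM in transgenic libraries 1, 2 and 3. The lowest transgenic value exceeded the highest wild-type one; the log2 difference of 0.41 did not pass edgeR's test (adjusted p = 0.17). Wild-type library 1 and transgenic library 3 carried 18522 and 16840 fragments of Y-linked genes, against 16 to 26 in the other libraries. Xist, an RNA of female cells, had 29 and 89 fragments in them, against 48599 to 54218 in the other libraries. By these RNAs, wild-type library 1 and transgenic library 3 were male and the other libraries female. Genes that mark DN3a cells were abundant, with Rag1 at 270 to 324 FPKM and Ptcra at 113 to 131 FPKM.

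The interferon-stimulated genes did not separate the genotypes, but they varied together among the wild-type libraries. Wild-type library 3 had the lowest of the 6 values for 30 of the 39 genes (76.9%, against 15.9% of all genes tested), and wild-type library 1 had the highest for 29 (74.4%, against 16.1%). The transgenic libraries stayed close to each other and lay wholly inside the wild-type range for 29 of the 39 genes, 74.4% against 17% of all genes tested. Of the genes tested, 0.0136% were called between genotypes by edgeR (quasi-likelihood fit, p adjusted by Benjamini-Hochberg, threshold 0.05), and of the 39 genes 0 were called. At an unadjusted p under 0.05, 1 of the 39 was lower in transgenic libraries and 0 were higher, against 7.7% and 5.71% of all genes. DESeq2 called 1 of the 39, against 2.37% of the 20825 genes with any count, whether or not it gave them an adjusted p. That is a wider set than the genes edgeR tested. With limma on log2 FPKM 0 were called, against 0.0334% and 0.0167% with pseudocounts of 0.1 and 1. Without wild-type library 3 the transgenic values lay inside the wild-type range for 4 of the 39 genes, against 10.5% of all genes, and without wild-type library 1 for 19, against 6.06%.

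**Figure D1:**
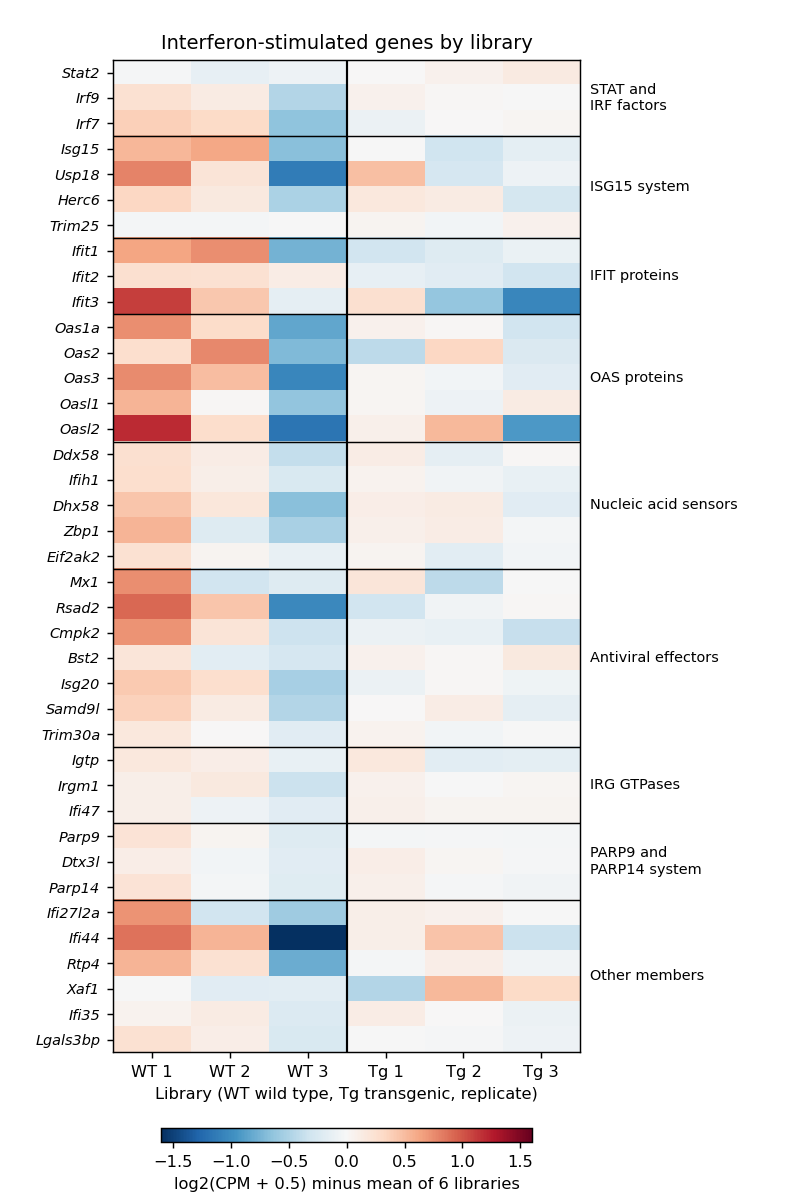
Level of the 39 interferon-stimulated genes in each library, drawn as log2(CPM + 0.5) minus the mean of the 6 libraries (colour scale; blue is lower, red is higher). Columns are the 3 wild-type and 3 transgenic (Tg) libraries, and rows are grouped by the protein's role. The column of wild-type library 3 is blue in most rows and that of wild-type library 1 is red in most rows, while the transgenic columns are pale in most rows, with exceptions such as Ifit3, Oasl2 and Xaf1.

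The factors that carry the signal came first. Stat2, a subunit of that complex, was measured at 50.5, 46.6 and 48.4 CPM in the wild-type libraries and at 51.4, 53.5 and 56.3 CPM in the transgenic ones. The groups did not overlap, the transgenic ones being higher, which was so for 8.73% of all genes tested and, among the 39 genes, for Stat2 alone. The log2 difference was 0.15 (SE 0.07, 95% interval -0.02 to 0.32) and did not pass edgeR's test (adjusted p = 0.438). Irf9, the subunit that recognises the response element, stood at 90.3, 83.6 and 54.7 CPM in wild type and at 80.0, 77.4 and 76.1 CPM in transgenic libraries. Irf7, which amplifies the induction of type I interferon genes, stood at 24.5, 23.4 and 11.9 CPM and at 17.6, 18.8 and 19.2 CPM. For Irf9 and Irf7 the 3 transgenic values lay between wild-type library 3 and the other two wild-type libraries. Their log2 differences were 0.03 (SE 0.15) and -0.10 (SE 0.23), smaller than the SD between wild-type libraries on the same scale, which was 0.39 for Irf9 and 0.57 for Irf7. For Stat2 that SD was 0.06.

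The next genes belong to the ISG15 system, in which the ubiquitin-like protein ISG15 is attached to other proteins and removed again. Isg15 was measured at 15.1, 16 and 6.29 CPM in wild type and at 10.3, 8.12 and 9.22 CPM in transgenic libraries. The log2 difference was -0.44 (SE 0.30, 95% interval -1.10 to 0.22), with every transgenic value between wild-type library 3 and the others. Usp18, the protease that removes ISG15 and also damps signalling at the type I receptor, stood at 23.5, 15.5 and 5.89 CPM in wild type and at 18.9, 11 and 12.7 CPM in transgenic libraries. Wild-type libraries thus differed 3.99-fold in Usp18 between the highest and the lowest, against a log2 difference of -0.08 (SE 0.40) between genotypes. Herc6, the ISG15 ligase of mice, ranged from 37.1 to 66.9 CPM in wild type and from 43.2 to 59.2 CPM in transgenic libraries. Trim25, a ubiquitin ligase that acts in RIG-I signalling, ranged from 120 to 122 CPM and from 119 to 129 CPM. It was the steadiest of the 39 genes among wild-type libraries, with an SD of 0.02 on the log2 scale.

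The IFIT proteins bind viral RNA and block its translation. All 3 of their genes had log2 differences below 0, also under each of the 16 alternatives in which they could be fitted. Their genes lie in a row on chromosome 19 in the GRCm38 (mm10) annotation, with 7111 bases between Ifit2 (34550694 to 34576419, plus strand) and Ifit3 (34583531 to 34588731, plus strand). Ifit2 was measured at 38.3, 37.8 and 34.6 CPM in wild type and at 29.2, 28.1 and 25.7 CPM in transgenic libraries. It was the 1 gene of the 39 whose transgenic values all lay below the wild-type ones, which held for 10.1% of all genes tested. The log2 difference was -0.42 (SE 0.09, 95% interval -0.62 to -0.22) with an adjusted p of 0.159 by edgeR, so Ifit2 did not pass the test. It passed with DESeq2 (adjusted p = 0.00626) and with a covariate for Y-linked RNA (adjusted p = 0.0445), which called 1.69% of all genes. Over all 16 alternatives its adjusted p ran from 0.00626 to 0.499. The SD between libraries was 0.08 in wild type and 0.09 in transgenic libraries, against 0.84 and 0.10 for Ifit1 and 0.62 and 0.66 for Ifit3. Ifit1 stood at 16, 17.4 and 5.80 CPM in wild type and at 8.17, 8.76 and 9.43 CPM in transgenic libraries. Ifit3, a low-level gene, stood at 4.21, 2.45 and 1.48 CPM and at 2.11, 0.92 and 0.559 CPM. The groups overlapped for both, through wild-type library 3, and the log2 differences were -0.57 (SE 0.33) for Ifit1 and -1.18 (SE 0.54, 95% interval -2.38 to 0.03) for Ifit3. In the authors' deposited table, which tests single transcripts, the Ifit3 transcript had the lowest q-value of any transcript of the 39 genes, 0.346. That table tested 114 of their 139 transcripts and marked 0 as significant, against 0.25% of all transcripts tested.

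The oligoadenylate synthetase (OAS) genes were all low in wild-type library 3. These enzymes are switched on by double-stranded RNA and make a messenger that activates RNase L; the mouse proteins encoded by Oasl1 and Oasl2 are related to them. All 5 genes had their lowest of 6 values there. All 5 had log2 differences below 0, with a median of -0.33 against a median SD of 0.81 between wild-type libraries, but without wild-type library 1 only Oas2 remained below 0 (-0.31). Oas3 was measured at 16.8, 13.9 and 4.50 CPM in wild type and at 9.99, 9.48 and 8.54 CPM in transgenic libraries (log2 difference -0.33, SE 0.37). Oasl2 stood at 21.5, 11.2 and 3.79 CPM and at 9.70, 13.2 and 4.6 CPM (log2 difference -0.40, SE 0.53). For Oas3 the transgenic libraries lay in a narrow band inside the wild-type range, whereas Oasl2 differed 5.67-fold among wild-type and 2.88-fold among transgenic libraries. Oas1a ranged from 4.50 to 14.4 CPM in wild type and from 6.68 to 8.82 CPM in transgenic libraries. Oas2 ranged from 2.81 to 8.74 CPM and from 3.55 to 6.31 CPM. Oasl1 ranged from 3.23 to 7.93 CPM and from 4.98 to 5.82 CPM. Oas2 and Oas3 lie 3244 bases apart on chromosome 5 and Oasl1 and Oasl2 11005 bases apart elsewhere on that chromosome.

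**Figure D2:**
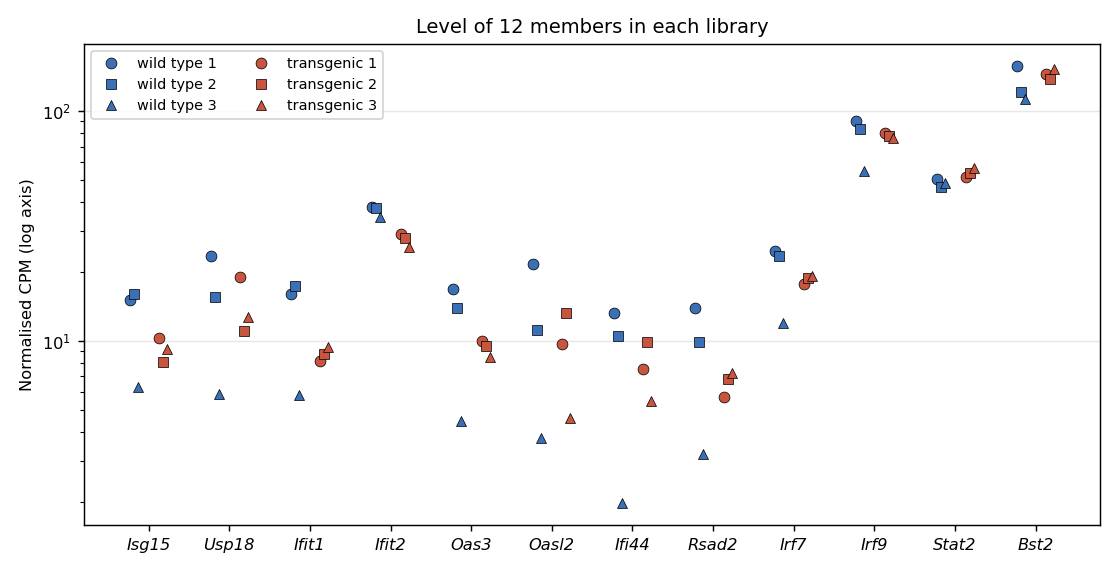
Level of 12 of the genes in each library, as CPM after TMM scaling on a log axis; blue marks are wild type, red marks are transgenic, and circle, square and triangle are replicates 1, 2 and 3. For Isg15, Usp18, Ifit1, Oas3, Oasl2, Ifi44, Rsad2, Irf7, Irf9 and Bst2 the blue triangle (wild-type library 3) is the lowest mark; for Ifit2 and Stat2 the groups do not overlap.

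Sensors of nucleic acid showed the same order of libraries with smaller steps. RIG-I (Ddx58) and MDA5 (Ifih1) detect viral RNA, LGP2 (Dhx58) modulates both, PKR (Eif2ak2) stops translation when it binds double-stranded RNA, and ZBP1 senses Z-form nucleic acid. Ddx58 ranged from 59.0 to 92.2 CPM in wild type and from 69.9 to 84.1 CPM in transgenic libraries. Ifih1 ranged from 53.7 to 77.0 CPM and from 58.9 to 66.2 CPM. Wild-type library 3 was lowest and wild-type library 1 highest of the 6 for both. Dhx58 ranged from 13.9 to 30.7 CPM in wild type and from 19.7 to 24.7 CPM in transgenic libraries. Zbp1 ranged from 7.49 to 16.2 CPM and from 10.6 to 11.9 CPM. Eif2ak2 ranged from 65.4 to 84.4 CPM and from 63.3 to 73.2 CPM, and was the 1 sensor not lowest in wild-type library 3. The median log2 difference over these 5 genes was -0.03, with a median SD of 0.34 between wild-type and 0.10 between transgenic libraries.

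Of 7 antiviral effectors, 5 were lowest in wild-type library 3. Rsad2 encodes viperin, which makes a chain-terminating nucleotide from CTP, and its neighbour Cmpk2, 12751 bases away on the opposite strand of chromosome 12, encodes a mitochondrial nucleotide kinase. Rsad2 was measured at 13.9, 9.90 and 3.23 CPM in wild type and at 5.68, 6.82 and 7.24 CPM in transgenic libraries. Cmpk2 stood at 14.5, 9.96 and 6.71 CPM and at 8, 7.89 and 6.58 CPM. Wild-type library 1 was the highest of the 6 for both, the groups overlapped, and the log2 differences were -0.45 (SE 0.41) and -0.47 (SE 0.25). Bst2 encodes tetherin, which holds budding virus at the cell surface, and by FPKM it was the most abundant of the 39 genes, at 165 FPKM ± 28.2 (SD, n = 3) in wild type and 184 FPKM ± 13.3 (SD, n = 3) in transgenic libraries. Its CPM values were 157, 121 and 113 in wild type and 144, 138 and 152 in transgenic libraries, so that all transgenic values lay between wild-type libraries 1 and 2 (log2 difference 0.15, SE 0.11). Without wild-type library 1, Bst2 was higher in transgenic libraries by a log2 difference of 0.30 (edgeR adjusted p = 0.0387), in a fit that called 3.32% of all genes. Over its 16 alternatives the adjusted p ran from 0.0387 to 0.909.

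The other effectors are given by their range. Isg20, an RNA exonuclease, ranged from 5.05 to 10.2 CPM in wild type and from 7 to 7.64 CPM in transgenic libraries. Samd9l, a restriction factor for poxviruses, ranged from 51 to 91.7 CPM and from 63.9 to 77.1 CPM. Trim30a ranged from 53.9 to 69.0 CPM and from 59.4 to 63.7 CPM. All 3 were lowest in wild-type library 3 and highest in wild-type library 1. Mx1, an antiviral GTPase of which C57BL/6 mice carry a defective allele, ranged from 2.56 to 5.83 CPM in wild type and from 2.32 to 3.81 CPM in transgenic libraries, with the lowest value in transgenic library 2.

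The immunity-related GTPases, which interferon gamma induces strongly and which act on vacuoles that hold intracellular parasites, spread little. Ifi47 was measured at 140, 124 and 116 CPM in wild type and at 139, 135 and 135 CPM in transgenic libraries (log2 difference 0.11, SE 0.07). Igtp ranged from 61.7 to 75.5 CPM in wild type and from 59.8 to 75.6 CPM in transgenic libraries. Irgm1 ranged from 55.0 to 78.1 CPM and from 70.1 to 73.6 CPM. The median SD over these 3 genes was 0.15 between wild-type libraries, close to the 0.14 of all genes tested, and 0.03 between transgenic ones. Igtp shares 7974 bases with Irgm2 and Ifi47 shares 20388 bases with Olfr56 on the same strand, so fragments may have been split between those genes.

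PARP9 and DTX3L form an ADP-ribosylation and ubiquitin ligase complex, and PARP14 is a mono-ADP-ribosyltransferase of the same chromosome 16 region. Parp9 stood at 164, 145 and 122 CPM in wild type and at 137, 139 and 138 CPM in transgenic libraries (log2 difference -0.06, SE 0.09). Dtx3l ranged from 196 to 239 CPM in wild type and from 220 to 240 CPM in transgenic libraries. Parp14 ranged from 138 to 186 CPM and from 152 to 168 CPM. All 3 were lowest in wild-type library 3. Parp9 and Dtx3l overlap by 682 bases on opposite strands, and the sources used here do not say whether the authors' counting used strand.

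Among the genes of less defined role, Ifi44 had the widest spread between wild-type libraries of all 39. It was measured at 13.2, 10.5 and 1.97 CPM in wild type and at 7.52, 9.89 and 5.46 CPM in transgenic libraries (log2 difference -0.17, SE 0.52). The value in wild-type library 3 rested on 89 fragments, with an exact 95% Poisson interval of 71.5 to 110 that covers counting error only. The mean of wild-type libraries 1 and 2 was 6.01-fold that value. Rtp4, a chaperone for membrane receptors, ranged from 13.7 to 35.4 CPM in wild type and from 23.4 to 26.1 CPM in transgenic libraries. Ifi27l2a ranged from 1.55 to 4.47 CPM and from 2.52 to 2.73 CPM. The highest wild-type value was 2.58-fold the lowest for Rtp4 and 2.88-fold for Ifi27l2a, while the transgenic values spread 1.11-fold and 1.09-fold. Lgals3bp, a secreted glycoprotein that binds galectin 3, stood at 101, 91.8 and 72.2 CPM in wild type and at 85.2, 84.4 and 81.0 CPM in transgenic libraries (log2 difference -0.08, SE 0.11). Ifi35 ranged from 36.8 to 47.3 CPM and from 40.2 to 46.9 CPM, again lowest in wild-type library 3. Xaf1, which binds the apoptosis inhibitor XIAP, went the other way in spread, from 17.7 to 20.1 CPM in wild type and from 14.5 to 29.0 CPM in transgenic libraries.

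Over the 39 genes the difference between genotypes was small beside the spread within wild type. The log2 differences ran from -1.18 to 0.30 with a median of -0.08, against 0.001 over all genes tested, and 29 lay below 0 and 10 above, against 49.8% and 50.2% of all genes. The sign of that median rested on the choice of libraries and unit. Without wild-type library 3 it was -0.26, with 33 genes below 0 and 17 lower at an unadjusted p under 0.05, against 4.97% of all genes. The groups then did not overlap for 21 of the 39 genes (53.8%, against 27% of all genes), and edgeR called 0, against 0.00665% of all genes. Without wild-type library 1 it was 0.11, with 8 genes below 0, and edgeR called Bst2 alone. The groups then did not overlap for 7 genes (17.9%, against 36.9% of all genes). With limma on log2(FPKM + 0.1) it was 0.04, with 14 of 38 genes below 0. The SD between wild-type libraries exceeded the absolute log2 difference for 34 of the 39 genes (87.2%, against 48% of all genes). The intervals allow differences in either direction for most of the genes, and the p-values that missed the threshold do not show that the genotypes have the same level. With all 6 libraries, Stat2 and Ifit2 were the 2 genes whose groups did not overlap.

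**Figure D3:**
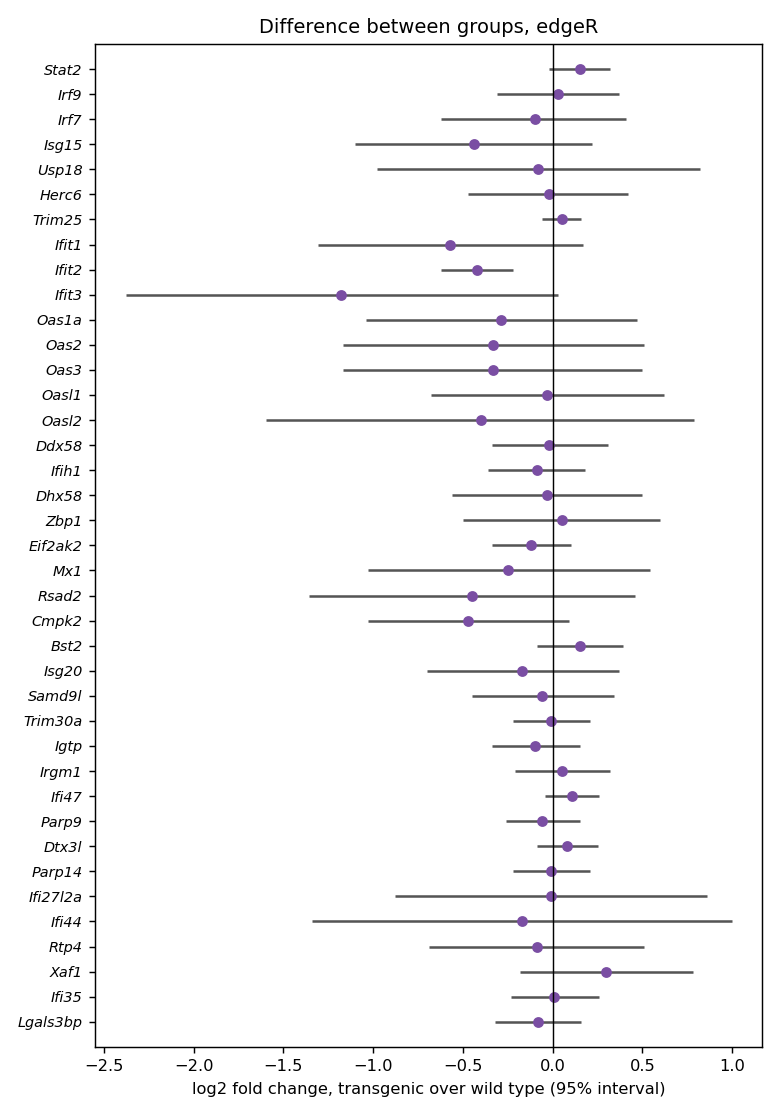
Difference between genotypes for the 39 genes, in the order of the heat map, as the log2 fold change of transgenic over wild type from edgeR (points) with 95% intervals (lines). The interval of Ifit2 lies below 0, all others include 0, and the widest belong to Ifit3, Oasl2 and Ifi44.

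The spread itself differed between the groups. The median SD of log2(CPM + 0.5) over the 39 genes was 0.44 between wild-type libraries and 0.10 between transgenic libraries, while over all genes tested it was 0.14 and 0.13. The SD was larger in wild type for 33 of the 39 genes (84.6%, against 53.4% of all genes). Wild-type libraries differed at least 2-fold between the highest and the lowest for 19 of the 39 genes, 48.7% against 15% of all genes. Transgenic libraries did so for 3, 7.69% against 14.2%. With 3 libraries a group the difference in spread was not tested.

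**Figure D4:**
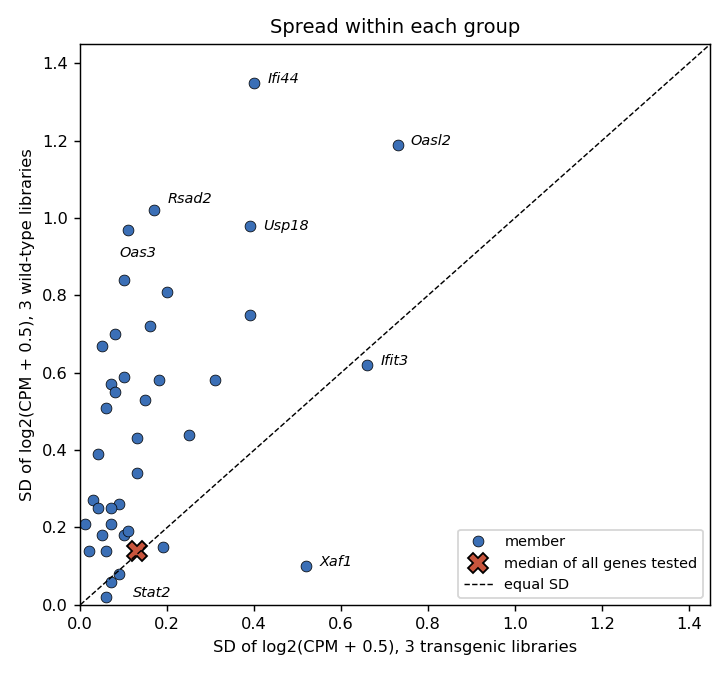
SD between the 3 wild-type libraries (vertical axis) against SD between the 3 transgenic libraries (horizontal axis), both of log2(CPM + 0.5), for the 39 genes (circles) and for the median of all genes tested (cross); the dashed line marks equal SD. Most circles lie above the line, Ifi44 and Oasl2 highest, and Ifit3, Xaf1, Igtp, Trim25, Stat2 and Ifit2 lie below it.

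The shared pattern can be read library by library. As the mean deviation from the 6-library mean over the 39 genes on the log2 scale, wild-type libraries 1, 2 and 3 stood at 0.42, 0.15 and -0.47 and transgenic libraries 1, 2 and 3 at 0.02, -0.01 and -0.11. The summed FPKM of the 39 genes was 898, 795 and 634 in wild type and 796, 789 and 802 in transgenic libraries. Against the mean of wild-type libraries 1 and 2, wild-type library 3 differed by a median of -0.68 (log2), with -2.31 for Ifi44 at one end and 0.03 for Trim25 at the other, and the median over all genes was 0.01. Wild-type library 1 exceeded wild-type library 2 for 34 of the 39 genes, against 50.1% of all genes, by a median of 0.18.

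Among the 39 genes, the difference of wild-type library 3 was larger in those of lower level. The 18 genes with a mean under 10 FPKM had a median difference of -0.95 (log2) in wild-type library 3, and the 21 genes at 10 FPKM or more had -0.34. Spearman's rho between mean FPKM and that difference was 0.63 over the 39 genes, which share the same libraries and are not independent. The mean FPKM takes in wild-type library 3 itself. The same measures are not given here for all genes, so the relation is not shown to be particular to these genes. In bulk RNA, fewer cells with an interferon response and less of these RNAs per cell cannot be told apart.

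Wild-type library 3 was then searched for all genes that stood apart there, a search made after its values had been seen. Of 11287 genes with a mean of at least 2 CPM, 41 were at least 2-fold lower in it than in the mean of wild-type libraries 1 and 2 (0.363%). Among them were 10 of the 38 interferon-stimulated genes at that level (26.3%), namely Ifi44, Oasl2, Rsad2, Oas3, Usp18, Ifit1, Oas1a, Isg15, Oas2 and Rtp4. Another 4 came from a separate list of interferon-stimulated genes, which had 53 genes at that level (7.55%). These were Slfn5, Slfn8, Mx2 and Ube2l6, the last a conjugating enzyme for ISG15. Slfn5 stood at 12.1, 7.53 and 2.57 CPM in wild type and at 5.10, 5.06 and 4.29 CPM in transgenic libraries. Not all of the 41 genes stood apart in wild-type library 3 alone. In wild-type libraries 1, 2 and 3, the Y-linked gene Kdm5d stood at 125, 0.215 and 0.199 CPM, and Rpl15-ps2 at 2.1, 41.8 and 2.55 CPM. In the opposite direction 42 genes were at least 2-fold higher in wild-type library 3, and 0 of them came from either list.

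The start regions of the genes were read for the letters that IRF and STAT proteins bind. RefSeq promoter windows on GRCm38.p6, from 250 bases before to 50 bases after the start, were found for 30 of the 39 genes. The IRF core GAAANNGAA, on either strand, was present in 17 of 30 (56.7%), against 9.76% of 27025 symbols with a window. The STAT core TTCNNNGAA occurred in 7 of 30 (23.3%), against 9.55%, and both occurred in 4 (13.3%), against 1.42%. The 120 bases before the start are shown for 4 genes that were low in wild-type library 3 and hold the IRF core (Isg15, Ifit1, Oas3 and Rsad2), for Trim25, which holds it and did not vary, and for Oasl2, which varied and has no match in the stretch. Each is written 5' to 3' along the gene's strand, and capitals mark matches to the IRF core on either strand, overlapping matches being joined.
Isg15: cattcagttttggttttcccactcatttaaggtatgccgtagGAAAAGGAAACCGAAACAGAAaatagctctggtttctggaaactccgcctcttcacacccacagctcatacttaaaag
Ifit1: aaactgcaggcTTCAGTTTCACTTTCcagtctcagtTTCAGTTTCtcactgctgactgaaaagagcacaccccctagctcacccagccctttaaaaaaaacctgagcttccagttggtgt
Oas3: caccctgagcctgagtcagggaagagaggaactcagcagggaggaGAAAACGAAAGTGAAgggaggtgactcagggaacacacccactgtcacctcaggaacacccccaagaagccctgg
Rsad2: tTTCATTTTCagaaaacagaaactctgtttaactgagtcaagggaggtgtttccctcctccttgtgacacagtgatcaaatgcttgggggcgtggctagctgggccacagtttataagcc
Trim25: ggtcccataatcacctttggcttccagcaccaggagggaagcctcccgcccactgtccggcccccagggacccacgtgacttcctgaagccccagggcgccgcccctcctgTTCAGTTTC
Oasl2: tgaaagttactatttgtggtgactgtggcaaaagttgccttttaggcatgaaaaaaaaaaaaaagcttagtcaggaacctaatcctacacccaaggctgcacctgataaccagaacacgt
These stretches are Isg15 at chr4:156200819-156200938 on the minus strand, Ifit1 at chr19:34640769-34640888 on the plus strand, Oas3 at chr5:120777660-120777779 on the minus strand, Rsad2 at chr12:26456453-26456572 on the minus strand, Trim25 at chr11:88999283-88999402 on the plus strand and Oasl2 at chr5:114896814-114896933 on the plus strand. Read against the values, the median log2 difference of wild-type library 3 from the other wild-type libraries was -0.57 over the 17 genes with the core and -0.66 over the 13 without it. A match describes these letters in this window and is not evidence of a bound site.

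Genes upstream of the response were looked at next, in lists of pathway genes. Of 20 type I and type III interferon genes, 17 were listed at 0 in every library, and the 1 that could be tested, Ifnz, ranged from 0.0877 to 0.796 CPM in wild type and from 0.0511 to 0.737 CPM in transgenic libraries. Ifng was not tested, with 4 to 15 fragments in wild-type and 0 to 19 in transgenic libraries. The receptors and their kinases were well expressed. Ifnar1, a type I receptor chain, stood at 140, 123 and 119 CPM in wild type and at 145, 137 and 145 CPM in transgenic libraries (log2 difference 0.16, unadjusted p = 0.0377, adjusted p = 0.328 by edgeR). Its highest wild-type value was in library 1 and its lowest in library 3, as for most of the target genes. The other chain Ifnar2 (log2 difference 0.09), the interferon gamma receptor chains Ifngr1 (-0.03) and Ifngr2 (0.16) and the kinases Jak1 (0.10) and Tyk2 (0.11) were not called. Of the 8 genes tested in that list, 6 lay above 0 and 2 below. All 8 had their lowest wild-type value in library 3, against 30.1% of all genes tested, with a mean deviation of -0.11 there. The log2 difference of library 3 from the mean of wild-type libraries 1 and 2 ran from -0.23 for Ifngr1 to -0.05 for Jak1.

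Irf1, a factor that interferon gamma induces, had a log2 difference of -0.01 (SE 0.07) and Irf3, which starts interferon transcription after virus is sensed, one of 0.06 (SE 0.05). Stat3, which carries signals of other cytokines, stood at 256, 207 and 238 CPM in wild type and at 286, 279 and 298 CPM in transgenic libraries, without overlap (log2 difference 0.30, edgeR adjusted p = 0.176). The 6 STAT and IRF genes tested outside the 39 (Stat3, Irf1, Irf2, Irf3, Irf4 and Irf5) had a median log2 difference of 0.16, 4 above 0 and 2 below, and Irf2, a repressor of IRF1 targets, stood at 0.26 (SE 0.13). Among 9 negative regulators the median was 0.02, 5 above 0 and 4 below. Socs1, which inhibits JAK kinases, was measured at 40.1, 48.2 and 48.0 CPM in wild type and at 55.9, 54.7 and 59.9 CPM in transgenic libraries (log2 difference 0.32, edgeR adjusted p = 0.193). Its groups did not overlap, and wild-type library 1, high for the target genes, was the lowest. Socs3 stood at 0.12 (SE 0.08) and Irf2bp2 at 0.09 (SE 0.07).

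Nucleic acid sensing genes outside the 39 had a median log2 difference of -0.003 over 16 tested, 8 above 0 and 8 below. Rnaseh2b, a subunit of the nuclease that removes RNA from DNA hybrids, had a log2 difference of -0.27 (SE 0.10, edgeR adjusted p = 0.302) and Rnaseh2a one of -0.12 (SE 0.07). Tlr7, an endosomal RNA receptor, ranged from 0.624 to 1.71 CPM in wild type and from 0.192 to 0.792 CPM in transgenic libraries. The separate list of interferon-stimulated genes held 70 symbols, of which 57 were tested, 22 above 0 and 35 below, with a median of -0.04. In that list 33 of 57 genes were lowest of 6 in wild-type library 3, against 15.9% of all genes tested. The mean deviations were 0.20, 0.05 and -0.20 in wild type and 0.02, -0.03 and -0.04 in transgenic libraries. Wild-type library 1 was high and library 3 low, as for the 39 genes, with smaller steps. Gbp8 stood at 374, 315 and 325 CPM in wild type and at 437, 386 and 416 CPM in transgenic libraries (log2 difference 0.29, edgeR adjusted p = 0.183), Ifi204 had a log2 difference of -1.09 (SE 0.43) at under 2 CPM, and Uba7, the ISG15-activating enzyme, one of 0.19 (SE 0.09). The 13 genes of MHC class I presentation had a median of 0.02, with Tap2 at 0.07 (SE 0.06), Tapbp at 0.10 (SE 0.09) and Nlrc5, their transcriptional activator, at -0.33 (SE 0.25). Across all these lists edgeR called 0 genes, with 1 to 2 at an unadjusted p under 0.05 in those lists that had any. DESeq2, which called 2.37% of all genes with any count, called Stat3 (adjusted p = 0.00466), Socs1 (0.0292) and Gbp8 (0.00519). With limma on log2 FPKM 0 were called. Without wild-type library 1 edgeR called Stat3 and Gbp8, and without the libraries with Y-linked RNA Gbp8, in fits that called 3.32% and 1.76% of all genes. Over 16 alternatives the adjusted p reached 0.499 for Stat3, 0.516 for Socs1 and 0.535 for Gbp8.

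**Figure D5:**
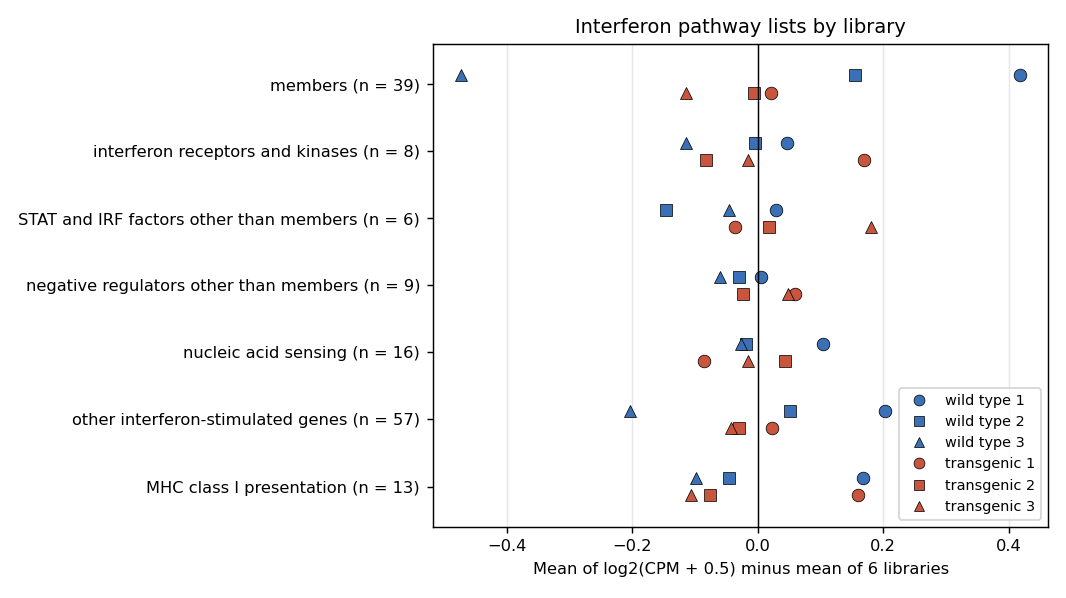
Mean of log2(CPM + 0.5) minus the 6-library mean over the genes of each list, for each library; blue marks are wild type, red marks are transgenic, and circle, square and triangle are replicates 1, 2 and 3. The 39 genes (members) spread from -0.47 to 0.42 in wild type, the other interferon-stimulated genes from -0.20 to 0.20, and the receptors, factors and regulators stay within 0.18 of 0.

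The remaining measurements bear on the libraries themselves. The Y-linked RNA of wild-type library 1 and transgenic library 3 crosses the genotypes, so the genes were compared within each kind. Between the 2 libraries with Y-linked RNA, 1 of each genotype, 36 of the 39 genes were lower in the transgenic one. The median log2 difference was -0.49, against -0.01 over all genes. Between the 2 wild-type and 2 transgenic libraries without it, 8 were lower. The median was 0.11, against 0.003 over all genes, so the direction of the median turned. The first comparison holds wild-type library 1, the highest of 6 for 29 of the 39 genes, and the second holds wild-type library 3, the lowest for 30. The turn cannot be told apart from which wild-type library each comparison holds. The groups of the 4 libraries without Y-linked RNA did not overlap for 8 of the 39 genes (20.5%, against 47.1% of all genes). Wild-type library 3 was lowest for 31 of the 39 genes among those 4 libraries, none of which carry Y-linked RNA. Being already the lowest of all 6 for 30 genes, it could not be lowest for fewer at the same scaling, so that count is no separate result. The part that Y-linked RNA has in the genotype comparison was not tested further.

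Genes induced by handling and stress, chosen after their values were seen, were also lowest in wild-type library 3. Fos stood at 20.7, 15.2 and 8.26 CPM in wild type and at 22.6, 18.2 and 38.6 CPM in transgenic libraries, and Hspa1a at 23.7, 32.0 and 12.6 CPM and at 81.4, 27.9 and 162 CPM. Fosb, Jun, Egr1 and Hspa1b also had their lowest value there. Transgenic library 3 had the highest value of all 6 genes, which the interferon-stimulated genes did not show, and the part of handling in either pattern was not tested.

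Of the other cell types the samples could hold, plasmacytoid dendritic cells are a main source of type I interferon. Of 8 of their markers 4 were tested; Klk1 and Cd300c were at 0 in all libraries, and Siglech had 0 fragments in 5 libraries and 2 in wild-type library 3. The summed FPKM of that list was 680, 384 and 429 in wild-type libraries 1, 2 and 3, highest in library 1. In transgenic libraries 1, 2 and 3 it was 657, 519 and 605. Nearly all of it came from Ly6d, which early lymphocytes also express. Macrophage and myeloid dendritic cell markers summed to 16.8 to 19.8 FPKM in wild type and 19.0 to 20.7 FPKM in transgenic libraries, 8 of 10 tested, with Csf1r at 8 to 27 fragments and the highest wild-type sum in library 3. B cell markers summed to 29.3 to 34.2 FPKM and 31.6 to 37.9 FPKM, 2 of 6 tested, with Pax5 at 0. Natural killer and innate lymphoid markers summed to 285 to 377 FPKM and 249 to 347 FPKM, 2 of 6 tested. Of these, Ncr1, Eomes and Klrd1 were at 0. In both lists the sum came from the other markers, so the markers at 0 do not show that such cells were absent. The wild-type sum of both lists was lowest in library 3. Granulocyte markers summed to at most 0.175 FPKM. Thymic epithelial markers summed to 43.4 to 46.2 FPKM and 43.6 to 51.9 FPKM, 2 of 7 tested, with Krt5 at 0 to 3 fragments and the sum from other markers. Early progenitor markers summed to 14.7 to 20.0 FPKM and 18 to 24.0 FPKM. Erythroid markers were highest in transgenic library 3, at 17.1 FPKM, against 5.53 and 8.16 FPKM in transgenic libraries 1 and 2. In wild type they summed to 1.08 to 8.68 FPKM, with library 3 the highest. Markers of later, double positive thymocytes summed to 15.3 to 18.8 FPKM in wild type, with library 3 the highest. In transgenic libraries they summed to 7.09 to 13.8 FPKM. All 5 had log2 differences below 0, with a median of -0.89. Of the 5, edgeR called 0, against 0.0136% of all genes tested. At an unadjusted p under 0.05 by edgeR 3 were lower, against 7.7% of all genes. The part of these cells in the interferon pattern was not tested.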

How the data were processed

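Per the labels' protocols, total RNA was purified with an RNeasy Micro kit (QIAGEN) and ribosomal RNA was removed with Ribo-Zero Gold. Per the submitters' processing notes, the build was mm10 and the tools were TopHat2 and Cuffdiff. No source used here gives the strand setting, the annotation or the tools' versions. Per the file headers, the deposited table holds, for each transcript and library, an estimated count of fragments and an FPKM value. The authors deposited a comparison of the pooled groups too, which lists for each transcript FPKM, log2 fold change, p-value and q-value. The deposited score of the authors' test and the externally scaled fragments (a signal per transcript, by the authors) were not used.

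The deposited estimated counts of all transcripts of a symbol were added up and rounded. The 466 transcripts of 197 symbols that the table marks as failed estimates were left out; 0 of the 39 genes are among them. Genes were filtered with filterByExpr (minimum count 10, minimum total 15), scaled by TMM and tested with edgeR 4.0.16 in R 4.3.3 (quasi-likelihood, two-sided, no covariate, Benjamini-Hochberg over 14653 genes, threshold 0.05). CPM are TMM-scaled, and spreads use log2(CPM + 0.5). The prior degrees of freedom were 5.61. The fit was tested on simulated data. At 39022281 fragments or more a library, counting error is small for all but the rarest of the genes.

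All 39 genes are named. Values in every library are given for those fixed by name, those with the smallest p, the largest spread or the highest FPKM, and for the named genes of the pathway lists values or log2 differences are given; 1 gene that the rule named is not reported here. The genes, the lists and the rule were chosen with earlier results of these data known. The search of wild-type library 3, the genes of handling and stress, and the values of Slfn5, Slfn8, Mx2 and Ube2l6 were chosen after the values were seen.

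As alternatives served DESeq2 1.42.0, limma 3.58.1 on log2 FPKM with a pseudocount of 0.1 or 1 (genes of at least 1 FPKM), other scaling and filters, counts per gene ID, a covariate for Y-linked RNA, a replicate block, and leaving out libraries. FPKM in place of CPM in the rank counts, and library omissions for them, were added after seeing the data. Positions are those of the GENCODE annotation on GRCm38, and promoter sequences are from RefSeq (GRCm38.p6).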

Additional observations from a re-analysis of the deposited data

How the results depend on the processing

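Wild-type library 3 was the lowest for 30 of the 39 genes with median-of-ratios scaling and for 31 with FPKM in place of CPM. Leaving out any other library, or both libraries with Y-linked RNA, gave 30 to 31. Those omissions are no check of the count, as a library that is lowest of all stays lowest, at the same scaling, when others are left out. The number of genes called between genotypes over all genes, 2 by edgeR, was 493 with DESeq2, 247 with a covariate for Y-linked RNA, 4 with limma on log2(FPKM + 0.1), 1 at a mean FPKM of at least 5, 127 without a filter on low counts, 260 without the libraries with Y-linked RNA, and 1 to 498 when 1 library was left out, the highest without wild-type library 1. The cause was not tested. Of the 39 genes, DESeq2 called 1 and the covariate 1 (Ifit2 in both), and 0 to 1 were called with 1 library left out. The number without overlap between groups, 2, was 8 without the libraries with Y-linked RNA (47.1% of all genes) and 2 to 21 with 1 library left out, from 2 (25.3% of all genes) without wild-type library 2 to 21 (27%) without wild-type library 3. The number with transgenic values inside the wild-type range, 29, was 4 to 31 with 1 library left out.

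Of the genes whose log2 difference is given above, Usp18 turned to 0.03 with the covariate, 0.11 and 0.07 with limma (pseudocounts 0.1 and 1) and 0.48 without the libraries with Y-linked RNA, and Ifi44 to 0.14, 0.01 and 0.48 in the last 3 of these. With both limma fits Parp9 turned to 0.03, Lgals3bp to 0.04 and Irf1 to 0.01, and with the lower pseudocount Oasl2 to 0.06. Without the libraries with Y-linked RNA, Irf7 turned to 0.04, Oas3 to 0.08, Oasl2 to 0.61, Parp9 and Lgals3bp to 0.05, Ifngr1 to 0.16, Irf1 to 0.08 and Nlrc5 to 0.09. With 1 library left out, the log2 difference ran from -0.46 to 0.41 for Usp18, -0.64 to 0.29 for Ifi44, -0.83 to 0.29 for Oasl2, -0.72 to 0.02 for Oas3, -0.85 to 0.003 for Rsad2, -0.37 to 0.07 for Irf7, -0.16 to 0.17 for Irf9, -0.16 to 0.05 for Parp9, -0.21 to 0.03 for Lgals3bp, -0.25 to 0.12 for Ifngr1 and -0.07 to 0.07 for Irf1.

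Libraries of the 2 groups share replicate numbers. Deviations of same-numbered libraries from their group means correlated across genes at 0.18, 0.14 and 0.002 for numbers 1, 2 and 3, so the numbers were not taken to pair the samples. A correlation over all genes does not show that no genes go by number. The MHC class I list had mean deviations of 0.17 in wild-type library 1 and 0.16 in transgenic library 1, against -0.11 to -0.05 in the other libraries. With the replicate number as a block edgeR called 14 genes, 6 higher and 8 lower, and 0 of the 39, whose median log2 difference was 0.001; Usp18 turned to 0.07 and Ifi44 to 0.12.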

Other observations

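Some genes outside the interferon lists also split the libraries of a group, named here after their values were seen. Slc15a2, a peptide transporter, stood at 106, 90.1 and 5.34 CPM in wild-type libraries 1, 2 and 3 and at 82.8, 96.2 and 0.508 CPM in transgenic libraries 1, 2 and 3. The library that stood apart was number 3 in both groups. The ribosomal protein pseudogene Rpl15-ps2 stood at 2.10, 41.8 and 2.55 CPM and at 1.87, 44.3 and 43.3 CPM, high in 1 wild-type and 2 transgenic libraries, and Gm6768 and Gm10020 were high in the same 3 libraries. H2-Q6, a class Ib MHC gene, stood at 8.94, 1.70 and 1.68 CPM and at 15.6, 2.20 and 1.19 CPM, highest in library 1 of each group.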
